A study of Mus musculus with 12 samples.

Results

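The Wnt and BMP signalling genes of the small intestinal stem cell niche were followed in the proximal jejunum of wild-type and TLR2 knockout mice with and without methotrexate, a folate antagonist that injures the intestinal mucosa. They comprise Wnt ligands, R-spondins, secreted Wnt inhibitors, Wnt receptors, Wnt target and feedback genes, BMP ligands, BMP antagonists and BMP target genes. The 41 genes were picked by name, and a gene entered through probe sets annotated to it alone, the brightest of them where there were several. This gave 40 genes of the 18820 on the array, and Tcf7 was not analysed here.

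There were 4 groups of 3 mice, with 1 Affymetrix array per mouse. The first was B6.129-Tlr2tm1Kir/J mice, which carry a targeted Tlr2 allele, given methotrexate at 40 mg per kg body weight a day intraperitoneally for 4 days and killed on day 7. The second was B6.129-Tlr2tm1Kir/J mice with no treatment. The third was C57BL6/J wild-type mice on that same methotrexate schedule, and the fourth was C57BL6/J wild-type mice with no treatment. The labels record no vehicle injection for the untreated mice, no age or sex, and no littermate relation between the strains, so genotype cannot be told apart from other differences between the mouse lines. The values are log2 signals from whole tissue, and their levels were compared between arrays and never between genes.

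Wnt proteins bind Frizzled receptors on crypt cells and stabilise beta-catenin, which with TCF and LEF factors switches on genes that maintain stem cells. R-spondins strengthen this signal by binding LGR receptors and removing the ubiquitin ligases RNF43 and ZNRF3, which otherwise clear Frizzled from the cell surface. BMPs act through SMAD proteins to favour differentiation towards the villus, and mesenchymal cells near the crypt base secrete antagonists such as gremlin that keep BMP signalling low around stem cells.

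Promoter sequence is shown for 3 genes whose signal rose after methotrexate in the knockouts and whose window held a searched motif. The windows are the 250 bases before the RefSeq gene start, in the direction of transcription, from assembly GRCm38.p6, and capitals mark the motif. Grem1 at chr2:113758649-113758898 and Id2 at chr12:25096093-25096342, both on the minus strand, held GGCGCC, a palindrome bound by BMP SMADs. Fzd1 at chr5:4758217-4758466 on the minus strand held TCAAAG, the reverse complement of CTTTGA, the core of the TCF and LEF site.
Grem1: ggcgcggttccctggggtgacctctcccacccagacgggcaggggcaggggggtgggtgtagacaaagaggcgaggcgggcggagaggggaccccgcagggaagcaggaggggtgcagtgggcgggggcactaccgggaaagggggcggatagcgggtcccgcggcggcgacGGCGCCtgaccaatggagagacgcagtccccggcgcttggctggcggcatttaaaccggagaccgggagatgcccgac
Id2: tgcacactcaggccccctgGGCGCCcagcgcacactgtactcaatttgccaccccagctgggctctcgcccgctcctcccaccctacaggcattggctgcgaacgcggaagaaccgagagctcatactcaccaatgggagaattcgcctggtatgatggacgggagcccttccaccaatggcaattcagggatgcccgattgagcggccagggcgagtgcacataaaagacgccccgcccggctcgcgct
Fzd1: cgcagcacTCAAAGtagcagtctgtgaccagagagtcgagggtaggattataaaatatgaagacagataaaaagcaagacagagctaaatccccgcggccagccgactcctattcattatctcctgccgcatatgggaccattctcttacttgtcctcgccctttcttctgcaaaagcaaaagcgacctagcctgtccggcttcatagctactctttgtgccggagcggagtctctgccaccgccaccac

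Counted from the gene start, the motif began at base -78 in Grem1, -231 in Id2 and -242 in Fzd1. RefSeq windows of 300 bases, running 50 bases past the start, were held for 25 of the 40 genes and were searched on both strands. A gene counted if any of its windows held the motif, and the 25 genes had 32 windows. The share of genes and the share of all windows given below are therefore unlike measures. GGCGCC lay in windows of 8 of the 25 genes (32.0%), namely Grem1, Wnt2b, Lef1, Rspo1, Wnt4, Wnt2, Wnt11 and Id2, against 11.87% of all 32851 windows. The gene set's windows were richer in G and C, with a median of 64.8% against 52.7% in all windows, and the part of base composition in the GGCGCC share was not tested. CTTTGA lay in windows of 4 of the 25 genes (16%), Lef1, Fzd1, Wnt5b and Wnt11, against 16% of all windows. GTCTAGAC, another SMAD motif, lay in the window of Smad6 alone, against 0.21% of all windows. The GGCGCC genes moved in no common way: after methotrexate in the knockouts Grem1, Wnt2b, Rspo1 and Id2 rose, while Wnt2, Wnt4, Wnt11 and Lef1 did not pass the test.

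Several features of the arrays bear on the values below. The Tlr2 probe set was not lower in the knockouts, at 6.18, 5.46 and 5.28 in methotrexate-treated and 4.36, 5.02 and 5.01 in untreated knockouts, against 4.49, 4.65 and 4.51 in methotrexate-treated and 4.37, 4.65 and 4.38 in untreated wild types. The tables used here do not place that probe set within the gene, so its level is no check of the genotype. Markers of pancreatic acinar cells (10 of 12 listed genes measured) were high in 7 arrays, with mean log2 signals of 11.7 to 12.3, and low in 5, at 3.85 to 5.22. The low arrays were replicate 1 of each group and replicate 3 of the methotrexate-treated wild types. Enterocyte markers, such as lactase and sucrase-isomaltase, had list means of 6.16 to 8.42 in methotrexate-treated knockouts and 11.46 to 11.82 in the other 9 arrays. After methotrexate in knockouts all 10 fell, where 16% of all genes did. Fibroblast markers, such as Pdgfra and Col1a1, had list means of 9.33 to 9.46 in methotrexate-treated knockouts and 7.44 to 7.86 in the other 9 arrays. All 8 fibroblast markers rose, where 18.8% of all genes did. Many Wnt and BMP ligands and antagonists of the gut are made by such mesenchymal cells, and in whole tissue a change in the number of cells of a type cannot be told apart from a change in RNA per cell.

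After methotrexate in the knockouts, 17 of the 40 genes rose (42.5%) and 6 fell (15%), where 18.8% of all genes rose and 16% fell. Here and below, a gene rose or fell where limma's Benjamini-Hochberg adjusted p over all 18820 genes was under 0.05. Of those that rose, 14 encode secreted factors: the ligands Wnt2b, Wnt5a and Wnt5b, the R-spondins Rspo1 and Rspo3, the Wnt inhibitors Dkk3, Sfrp1, Sfrp2 and Sfrp4, the antagonists Grem1 and Chrdl1, and Bmp4, Bmp5 and Bmp7. The receptor Fzd1, the feedback inhibitor Nkd1 and the BMP target Id2 rose too. Those that fell were the Wnt feedback genes Rnf43 and Notum and the BMP targets Id1, Id3, Smad6 and Smad7. The median change of the 40 genes was 0.28 on the log2 scale, against -0.02 over all genes.

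In wild-type mice, methotrexate moved none of the 40 genes past the same test, where 0.0744% of all genes, 14 in number, passed it. At an unadjusted p under 0.05, 7 of the 40 genes and 2198 of all genes passed in wild types. The median change of the 40 genes in wild types was -0.19, against 0.00 over all genes, with 32 of the 40 estimates below 0 and 8 above it. The difference between the genotypes' responses, tested as an interaction, was above 0 with an adjusted p under 0.05 for 17 genes (42.5%) and below 0 for none, where 11.8% of all genes passed above 0 and 12% below. At an unadjusted p under 0.05 no interaction below 0 was found among the 40 either. That count of 0 depended on the fit. With array weights 5 of the 40 genes were called below 0 (Axin2, Id1, Lgr4, Notum and Smad7, limma adjusted p 0.0109 to 0.0498). In that fit 3670 of all 18820 genes were called below 0 and 3804 above. Axin2, Id1 and Lgr4 were called below 0 without replicate 1 of the methotrexate-treated knockouts (adjusted p 0.0188 to 0.0471), Notum without replicate 1 of the untreated knockouts (adjusted p = 0.0352), and Smad7 without replicate 2 of the methotrexate-treated wild types (adjusted p = 0.0465). Over all genes, 2669, 2162 and 2172 were called below 0 in these fits, in that order. Axin2 was also called below 0, at -0.68, in the arrays of high pancreatic signal, which hold only replicate 2 of the methotrexate-treated wild types. Smad7 and Wnt3 were called below 0, at -1.04 and -0.91, in those of low signal, which hold only replicate 1 of each knockout group. The methotrexate-treated knockouts entered the response in knockouts, the comparison of treated genotypes and the interaction, so these share arrays and are not independent of each other.

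**Figure D1:**
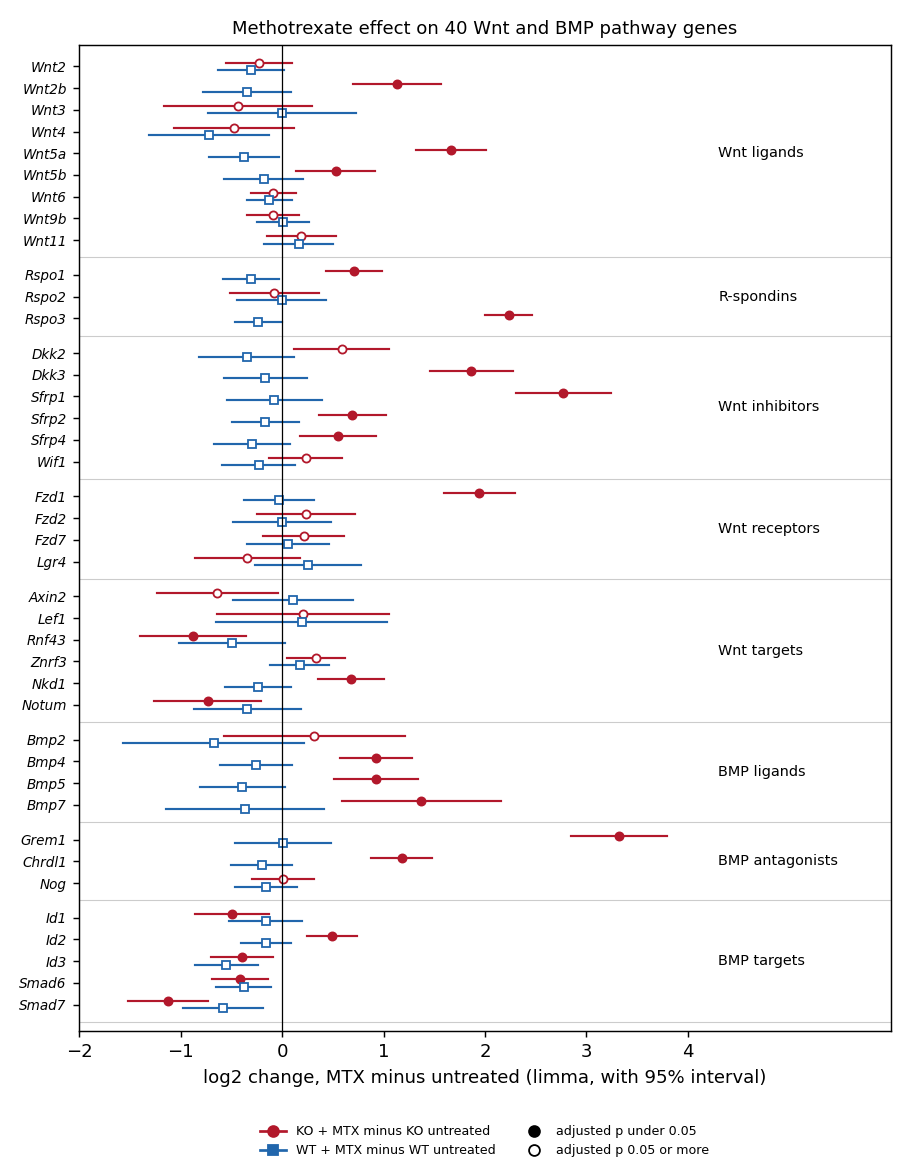
Log2 change after methotrexate (x axis, methotrexate minus untreated) for each of the 40 genes (y axis, grouped by role), with red circles for knockouts, blue squares for wild types and bars for limma's 95% interval. Filled symbols have an adjusted p under 0.05: 17 knockout points lie to the right of 0 and 6 to the left, and no wild-type point is filled.

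Among the Wnt ligands, Wnt5a, which acts mostly through non-canonical receptors, changed most. Its signal was 7.21, 7.15 and 7.03 in methotrexate-treated knockouts and 5.66, 5.17 and 5.57 in untreated knockouts, against 4.92, 5.28 and 5.09 in methotrexate-treated and 5.21, 5.59 and 5.62 in untreated wild types. All 3 methotrexate-treated knockouts lay above the other 9 arrays. The change was 1.66 ± 0.16 in knockouts (SE, n = 3 mice per group, limma adjusted p = 9.13e-06), while in wild types it was -0.38 with an interval of -0.72 to -0.03 and did not pass the test (adjusted p = 0.397).

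Wnt2b, a canonical ligand of the crypt mesenchyme, had signals of 7.22, 7.98 and 7.69 in methotrexate-treated knockouts and 6.57, 6.32 and 6.62 in untreated knockouts, against 6.16, 5.95 and 5.78 in methotrexate-treated and 6.11, 6.21 and 6.61 in untreated wild types. The methotrexate-treated knockouts were again the 3 highest arrays, with a change of 1.13 ± 0.20 (limma adjusted p = 0.000851, n = 3), and the wild-type estimate was -0.35 (adjusted p = 0.499). The 5 arrays with low pancreatic signal and the 7 with high signal were also fitted apart, a split chosen after seeing the data, which sets replicate 1 against replicate 1 of the knockouts in the low arrays with 1 residual degree of freedom, so that each lone knockout array is assumed to vary like the treated wild types. The knockout change of Wnt2b was 0.66 in the low arrays (adjusted p = 0.0947) and 1.37 in the high arrays (adjusted p = 0.000448).

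Wnt5b, a relative of Wnt5a, rose by a smaller amount. It read 3.91, 3.83 and 4.39 in methotrexate-treated knockouts and 3.48, 3.61 and 3.44 in untreated knockouts, against 3.68, 3.52 and 3.75 in methotrexate-treated and 3.57, 3.75 and 4.18 in untreated wild types. The knockout groups did not overlap, but an untreated wild type reached above 2 of the 3 methotrexate-treated knockouts, and the change of 0.53 ± 0.18 (limma adjusted p = 0.0373, n = 3) was lost in the fits without replicate 3 of the methotrexate-treated knockouts, any 1 untreated knockout, replicate 1 of the methotrexate-treated wild types or replicate 2 of the untreated wild types (adjusted p 0.0507 to 0.135).

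Wnt3, the ligand that Paneth cells supply to stem cells, gave a result that turned on 1 array. It read 4.21, 3.89 and 3.42 in methotrexate-treated knockouts and 4.96, 4.44 and 3.41 in untreated knockouts, a difference of -0.43 ± 0.33 (limma adjusted p = 0.361, n = 3). The untreated knockouts covered the whole range of the treated ones. Without replicate 3 of the untreated knockouts the difference was -0.86 (adjusted p = 0.0214), and in the low arrays alone it was -0.75 (adjusted p = 0.0261). Wnt4, a further ligand, differed by -0.48 in knockouts (adjusted p = 0.208) and -0.73 in wild types (adjusted p = 0.347). In knockouts it was -0.75 without replicate 1 of the untreated ones (adjusted p = 0.0421), and it was -0.71 in the high arrays (adjusted p = 0.00485) and -0.01 in the low arrays (adjusted p = 0.986). The remaining ligands Wnt2, Wnt6, Wnt9b and Wnt11 had knockout estimates between -0.23 and 0.19, and none passed the test.

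Of the R-spondins, Rspo3 separated the groups most widely for its spread. Its signal was 6.71, 6.88 and 6.61 in methotrexate-treated knockouts and 4.59, 4.41 and 4.47 in untreated knockouts, against 4.40, 4.37 and 4.57 in methotrexate-treated and 4.59, 4.68 and 4.77 in untreated wild types. The lowest methotrexate-treated knockout stood well clear of the highest other array. The change was 2.24 ± 0.11, or 4.71-fold (limma adjusted p = 5.63e-08, n = 3), and the estimate in wild types was -0.23 (adjusted p = 0.423).

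Rspo1 read 5.05, 5.19 and 4.98 in methotrexate-treated knockouts and 4.24, 4.48 and 4.36 in untreated knockouts, against 3.79, 3.96 and 4.11 in methotrexate-treated and 4.45, 4.24 and 4.09 in untreated wild types. It rose by 0.71 ± 0.13 in knockouts (limma adjusted p = 0.000936, n = 3), with no overlap between methotrexate-treated knockouts and any other array. Rspo2, the third R-spondin measured, read 3.62, 3.15 and 3.43 in methotrexate-treated and 3.54, 3.73 and 3.16 in untreated knockouts, and its interval ran from -0.51 to 0.36.

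The secreted Wnt inhibitors included the second largest change of the 40 genes. Sfrp1, a decoy that binds Wnt proteins, read 10.50, 11.32 and 10.96 in methotrexate-treated knockouts and 8.11, 8.28 and 8.07 in untreated knockouts, against 7.68, 8.29 and 7.92 in methotrexate-treated and 7.77, 8.15 and 8.20 in untreated wild types. The 3 treated knockouts stood apart from all other arrays, and the change was 2.77 ± 0.21, or 6.84-fold (limma adjusted p = 1.84e-06, n = 3). In wild types it was -0.08 with an interval of -0.55 to 0.39.

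Dkk3, a divergent member of the Dickkopf family, read 7.39, 8.12 and 7.91 in methotrexate-treated knockouts and 6.18, 5.96 and 5.69 in untreated knockouts, against 5.99, 5.86 and 5.91 in methotrexate-treated and 6.29, 6.04 and 5.94 in untreated wild types. All treated knockouts exceeded all other arrays, and the change was 1.87 ± 0.19 (limma adjusted p = 1.29e-05, n = 3). The decoys Sfrp2 and Sfrp4 rose by 0.69 ± 0.15 (adjusted p = 0.00383) and 0.55 ± 0.17 (adjusted p = 0.026). The Sfrp4 call was lost without replicate 2 or 3 of the methotrexate-treated knockouts or replicate 1 of the untreated knockouts (adjusted p 0.0773 to 0.106).

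Dkk2, a Dickkopf protein that binds LRP co-receptors, read 5.37, 4.65 and 4.35 in methotrexate-treated knockouts and 4.33, 3.95 and 4.33 in untreated knockouts, against 3.84, 3.81 and 3.84 in methotrexate-treated and 4.18, 4.27 and 4.09 in untreated wild types. Replicate 1 of the methotrexate-treated knockouts stood above the rest of its group, and the change of 0.59 ± 0.21 just missed the test (limma adjusted p = 0.0539, n = 3). It was 0.81 without replicate 3 of the methotrexate-treated knockouts (adjusted p = 0.00924). In the low arrays, which hold only replicate 1 of each knockout group, it was 1.04, and in the high arrays 0.36. Wif1, a secreted Wnt-binding protein, differed by 0.23 ± 0.16 (adjusted p = 0.316).

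Among the receptors, Fzd1, a Frizzled, read 7.73, 7.63 and 8.03 in methotrexate-treated knockouts and 5.93, 5.87 and 5.77 in untreated knockouts, against 5.73, 5.53 and 5.33 in methotrexate-treated and 5.25, 5.72 and 5.72 in untreated wild types. It rose by 1.94 ± 0.16 (limma adjusted p = 2.94e-06, n = 3) with a wide gap to every other array, and its wild-type estimate of -0.03 had an interval of -0.38 to 0.32. The Frizzleds Fzd2 and Fzd7 differed by 0.24 and 0.21 (adjusted p = 0.459 and 0.419), and Fzd7 by 0.48 in the high arrays and -0.32 in the low arrays.

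Lgr4, an R-spondin receptor of the crypt epithelium, read 8.34, 7.70 and 7.23 in methotrexate-treated knockouts and 8.37, 7.87 and 8.06 in untreated knockouts, against 8.30, 8.45 and 8.46 in methotrexate-treated and 8.01, 8.06 and 8.38 in untreated wild types. Replicate 1 of the methotrexate-treated knockouts lay among the other groups while replicates 2 and 3 were the lowest arrays of all. The difference of -0.34 ± 0.24 did not pass the test (limma adjusted p = 0.306, n = 3), but without replicate 1 of the methotrexate-treated knockouts it was -0.64 with an adjusted p of 0.0197.

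The Wnt target and feedback genes did not move together. Axin2, the standard readout of beta-catenin activity, read 6.49, 5.64 and 5.40 in methotrexate-treated knockouts and 6.96, 6.26 and 6.22 in untreated knockouts, against 6.28, 6.33 and 6.41 in methotrexate-treated and 5.95, 6.38 and 6.36 in untreated wild types. Replicate 1 was the highest array of both knockout groups, and the groups overlapped. The difference was -0.64 ± 0.27 (limma adjusted p = 0.0928, n = 3), and without replicate 1 of the methotrexate-treated knockouts it was -0.96 (adjusted p = 0.00535). It also passed the test with quantile normalization (-0.73, adjusted p = 0.0467) and with array weights (-0.67, adjusted p = 0.00426). In the high arrays it was -0.72 and in the low arrays -0.47.

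Rnf43, the ubiquitin ligase that removes Frizzled receptors, read 7.55, 7.30 and 7.22 in methotrexate-treated knockouts and 7.71, 8.41 and 8.58 in untreated knockouts, against 7.76, 7.56 and 7.46 in methotrexate-treated and 7.63, 8.29 and 8.35 in untreated wild types. In both untreated groups replicates 2 and 3, the arrays with high pancreatic signal, were higher than replicate 1. It fell by 0.88 in methotrexate-treated knockouts (SE 0.24, limma adjusted p = 0.0135, n = 3), and the wild-type estimate was -0.50 (adjusted p = 0.446).

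Notum, an enzyme that inactivates Wnt proteins, read 3.06, 2.90 and 3.33 in methotrexate-treated knockouts and 3.17, 4.14 and 4.17 in untreated knockouts, against 3.57, 3.23 and 3.37 in methotrexate-treated and 3.95, 3.62 and 3.63 in untreated wild types. The knockout groups overlapped through replicate 1 of the untreated ones, and the change was -0.73 ± 0.24 (limma adjusted p = 0.0345, n = 3). Another, dimmer Notum probe set had a mean signal of 3.08 and differed by -0.10 (limma adjusted p = 0.694). Averaging it with the brighter one gave -0.42, and the call was lost (limma adjusted p = 0.111). Between the arrays with high pancreatic signal the knockout changes of Rnf43 and Notum were -1.24 (adjusted p = 6.88e-05) and -1.05 (adjusted p = 0.000759), whereas between those with low signal they were -0.16 (adjusted p = 0.682) and -0.11 (adjusted p = 0.758). The Rnf43 call was lost without replicate 2 or 3 of the untreated knockouts (adjusted p 0.0541 to 0.0594), and the Notum call without either of those or replicate 1 or 2 of the methotrexate-treated knockouts (adjusted p 0.0717 to 0.134). The part of pancreatic tissue in these falls was not tested beyond this split.

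Nkd1, an inhibitor of Dishevelled that beta-catenin induces, read 6.92, 7.18 and 6.82 in methotrexate-treated knockouts and 6.61, 6.20 and 6.08 in untreated knockouts, against 5.91, 5.92 and 5.87 in methotrexate-treated and 6.03, 6.32 and 6.08 in untreated wild types. It rose by 0.68 ± 0.15 (limma adjusted p = 0.00402, n = 3), and every treated knockout lay above every other array. In the low arrays alone it changed by 0.31 (adjusted p = 0.287) and in the high arrays by 0.86 (adjusted p = 0.00263). Znrf3, the partner ligase of Rnf43, differed by 0.33 ± 0.13 (adjusted p = 0.0719). Lef1, a transcription factor of the pathway, spread from 3.89 to 5.25 within the methotrexate-treated knockouts alone and differed by 0.21 ± 0.39.

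**Figure D2:**
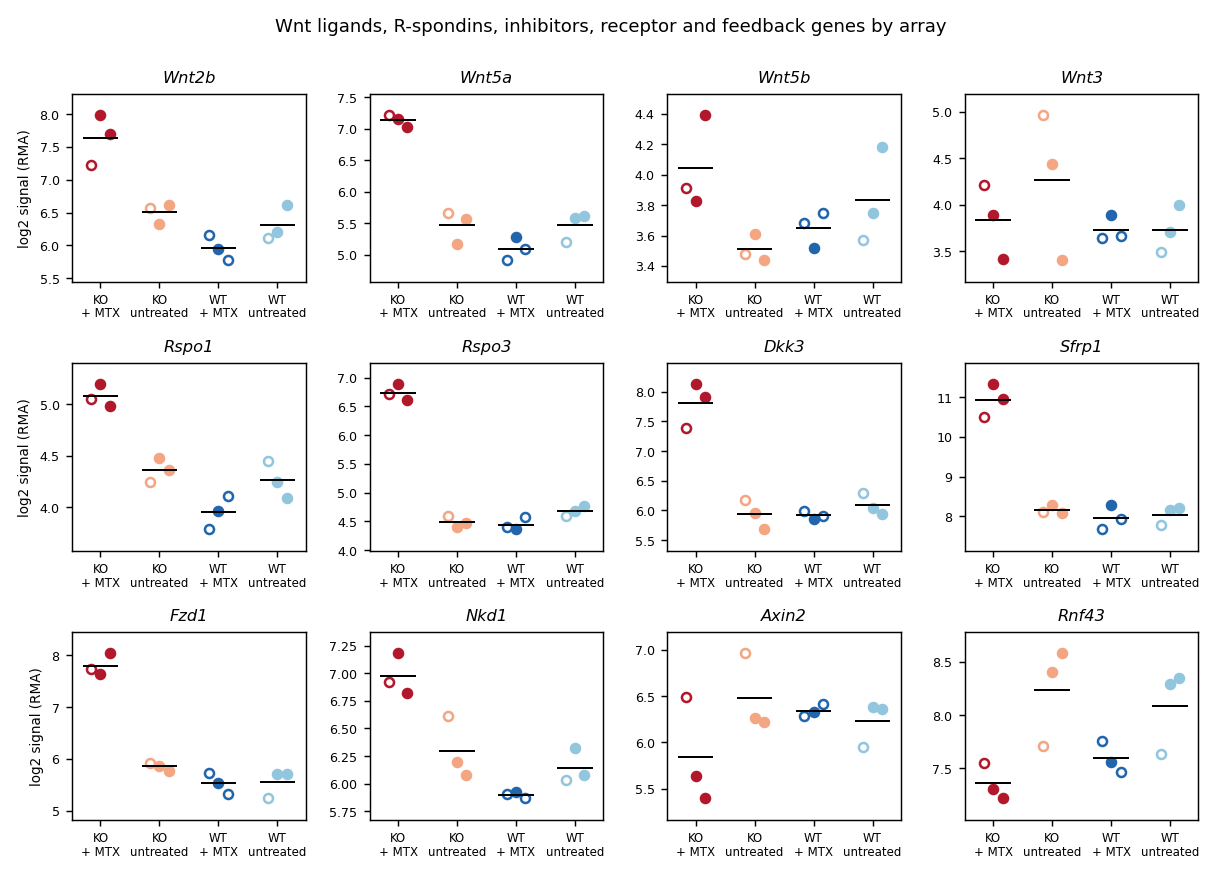
Log2 signal (y axis) of 12 Wnt pathway genes in each array, with the groups on the x axis from methotrexate-treated knockouts to untreated wild types, filled points for arrays with high pancreatic acinar signal, open points for low, and a black line at the group mean. Wnt5a, Rspo3, Dkk3, Sfrp1 and Fzd1 lie apart in the methotrexate-treated knockouts, and Rnf43 is lower in the open than in the filled points of both untreated groups.

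The BMP antagonist Grem1 showed the largest change of all 40 genes in the knockouts. Gremlin binds BMP2, BMP4 and BMP7 and keeps them from their receptors. Its signal was 11.23, 11.19 and 11.14 in methotrexate-treated knockouts and 8.36, 7.64 and 7.59 in untreated knockouts, against 8.02, 7.96 and 7.49 in methotrexate-treated and 7.57, 8.11 and 7.77 in untreated wild types. The 3 methotrexate-treated knockouts lay close together and all other arrays far below them. The group means were 11.19 ± 0.04 in methotrexate-treated and 7.86 ± 0.43 in untreated knockouts, against 7.82 ± 0.29 in methotrexate-treated and 7.82 ± 0.28 in untreated wild types (SD, n = 3 each). The change was 3.32 ± 0.22 (limma adjusted p = 5.62e-07, n = 3), and in wild types it was 0.01 with an interval of -0.47 to 0.48.

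Chrdl1, a chordin-like BMP antagonist, read 5.95, 6.16 and 5.90 in methotrexate-treated knockouts and 4.91, 4.93 and 4.64 in untreated knockouts, against 4.86, 4.83 and 4.70 in methotrexate-treated and 4.79, 5.25 and 4.94 in untreated wild types. It rose by 1.18 ± 0.14 (limma adjusted p = 4.02e-05, n = 3), again with no overlap between treated knockouts and the other arrays. Nog, which encodes the antagonist noggin, lay between 2.68 and 3.18 in all arrays and differed by 0.01 with an interval of -0.30 to 0.31. It was the only one of the 40 genes whose mean signal was below the 25th percentile of all genes (3.22), so a change in it may lie under what its probe set can show. Sfrp4, which had a call, lay just above that limit with a mean signal of 3.24. Notum, also called, averaged 3.09 in methotrexate-treated knockouts, below it.

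Of the BMP ligands, Bmp4, made by the villus and crypt mesenchyme, read 8.48, 8.76 and 8.63 in methotrexate-treated knockouts and 7.95, 7.59 and 7.54 in untreated knockouts, against 6.90, 7.03 and 7.34 in methotrexate-treated and 7.12, 7.56 and 7.37 in untreated wild types. The treated knockouts lay above all other arrays, with a change of 0.93 ± 0.16 (limma adjusted p = 0.000846, n = 3). Bmp5, a related stromal ligand, rose by 0.93 ± 0.19 (adjusted p = 0.00256). With the arrays of low pancreatic signal alone, Bmp4 and Bmp5 changed by 0.52 (adjusted p = 0.197) and 0.63 (adjusted p = 0.052).

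Bmp7, another ligand, read 8.09, 8.44 and 8.60 in methotrexate-treated knockouts and 6.20, 7.28 and 7.53 in untreated knockouts, against 5.64, 6.45 and 5.91 in methotrexate-treated and 5.77, 6.60 and 6.73 in untreated wild types. It rose by 1.37 ± 0.36 in knockouts (limma adjusted p = 0.0106, n = 3). It was the only one of the 40 genes that was higher in the arrays with high pancreatic signal within all 4 groups, by 0.43 in methotrexate-treated and 1.21 in untreated knockouts, and by 0.68 in methotrexate-treated and 0.90 in untreated wild types. Of all genes, 4.47% were ordered that way. The knockout change was 1.89 (adjusted p = 0.00175) between arrays of low pancreatic signal and 1.11 (adjusted p = 0.000255) between those of high signal. A second, dimmer Bmp7 probe set had a mean signal of 2.94, below the 25th percentile of all genes, and differed by -0.18 (adjusted p = 0.453). Averaging it with the brighter one gave 0.60 (adjusted p = 0.0696).

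Bmp2, a ligand of the villus and the muscle layers, read 7.45, 6.91 and 6.98 in methotrexate-treated knockouts and 6.55, 7.03 and 6.81 in untreated knockouts, against 5.79, 6.12 and 5.76 in methotrexate-treated and 5.35, 7.00 and 7.35 in untreated wild types. Replicate 1 of the untreated wild types was far below the rest of its group, and the knockout groups overlapped. Adipocyte markers (6 of 7 listed genes measured) averaged 7.38 in that wild-type array and 4.56 to 5.52 in the others. Whether this bears on its Bmp2 level was not tested. The knockout difference was 0.32 ± 0.41 (limma adjusted p = 0.606, n = 3) and the wild-type one -0.68 ± 0.41 (adjusted p = 0.517). In knockouts it was 0.90 in the low arrays (adjusted p = 0.0139) and 0.02 in the high arrays (adjusted p = 0.916).

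Of the 5 BMP target genes, 4 fell in knockouts and 1 rose. Smad7, an inhibitory SMAD that BMP and TGF-beta induce, read 6.12, 6.02 and 5.97 in methotrexate-treated knockouts and 7.52, 6.88 and 7.07 in untreated knockouts, against 7.09, 6.48 and 6.93 in methotrexate-treated and 7.37, 7.34 and 7.53 in untreated wild types. The treated knockouts were the 3 lowest arrays, and the treated wild types lay below the untreated ones without overlap. It fell by 1.12 in knockouts (SE 0.18, limma adjusted p = 0.000463, n = 3), and the wild-type estimate of -0.58 ± 0.18 had an interval of -0.98 to -0.19 but did not pass the adjusted test (adjusted p = 0.264). The interaction for Smad7 was -0.54 (adjusted p = 0.165), and it passed the test without replicate 2 of the methotrexate-treated wild types (-0.72, adjusted p = 0.0465), with array weights (-0.51, adjusted p = 0.0498) and in the low arrays alone (-1.04, adjusted p = 0.0381).

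Id3, an inhibitor of DNA binding that BMPs induce, read 7.11, 7.19 and 7.10 in methotrexate-treated knockouts and 7.52, 7.40 and 7.66 in untreated knockouts, against 7.14, 6.84 and 7.03 in methotrexate-treated and 7.24, 7.71 and 7.72 in untreated wild types. In each genotype all treated arrays lay below all untreated ones. The changes were -0.40 ± 0.14 in knockouts (limma adjusted p = 0.0477, n = 3) and -0.55 ± 0.14 in wild types (adjusted p = 0.184), the smallest adjusted p of the 40 genes in wild types. The interaction was 0.15 with an interval of -0.28 to 0.59. The knockout call was lost without any 1 of 9 arrays, the exceptions being replicate 2 of the methotrexate-treated wild types and replicates 1 and 3 of the untreated wild types, with adjusted p from 0.0531 to 0.154, and also with replicate number as a block (adjusted p = 0.0649). A trended robust variance (limma adjusted p = 0.057) and the pancreatic signal as covariate (limma adjusted p = 0.0507) lost the call too.

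Smad6, the other inhibitory SMAD, read 5.77, 5.58 and 5.95 in methotrexate-treated knockouts and 6.09, 6.17 and 6.29 in untreated knockouts, against 5.90, 5.56 and 5.79 in methotrexate-treated and 6.15, 6.03 and 6.19 in untreated wild types. Treated and untreated arrays did not overlap in either genotype, with changes of -0.42 ± 0.12 in knockouts (limma adjusted p = 0.0214, n = 3) and -0.38 ± 0.12 in wild types (adjusted p = 0.295). The knockout call was lost without replicate 2 of the methotrexate-treated knockouts or replicate 2 or 3 of the untreated knockouts (adjusted p 0.0531 to 0.0906).

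Id1, the closest relative of Id3 here, read 8.59, 8.02 and 7.98 in methotrexate-treated knockouts and 8.72, 8.56 and 8.80 in untreated knockouts, and replicate 1 of the treated ones overlapped the untreated range. It fell by 0.50 (SE 0.17, limma adjusted p = 0.0364, n = 3), a call lost without replicate 2 or 3 of the methotrexate-treated knockouts, replicate 1 or 3 of the untreated knockouts or replicate 2 of the untreated wild types (adjusted p 0.0509 to 0.13). Id2 went the other way. It read 9.88, 10.29 and 10.09 in methotrexate-treated knockouts and 9.61, 9.63 and 9.56 in untreated knockouts, against 9.39, 9.33 and 9.33 in methotrexate-treated and 9.37, 9.55 and 9.60 in untreated wild types. All treated knockouts lay above all other arrays, and the change was 0.49 ± 0.11 (adjusted p = 0.00497). In the low arrays alone Id1 changed by -0.13 (adjusted p = 0.757) and Id2 by 0.28 (adjusted p = 0.341), and in the high arrays by -0.68 (adjusted p = 0.00406) and 0.60 (adjusted p = 0.00415). The calls of Sfrp4, Wnt5b, Id3 and Smad6 were also lost in the low arrays (adjusted p 0.147 to 0.28).

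**Figure D3:**
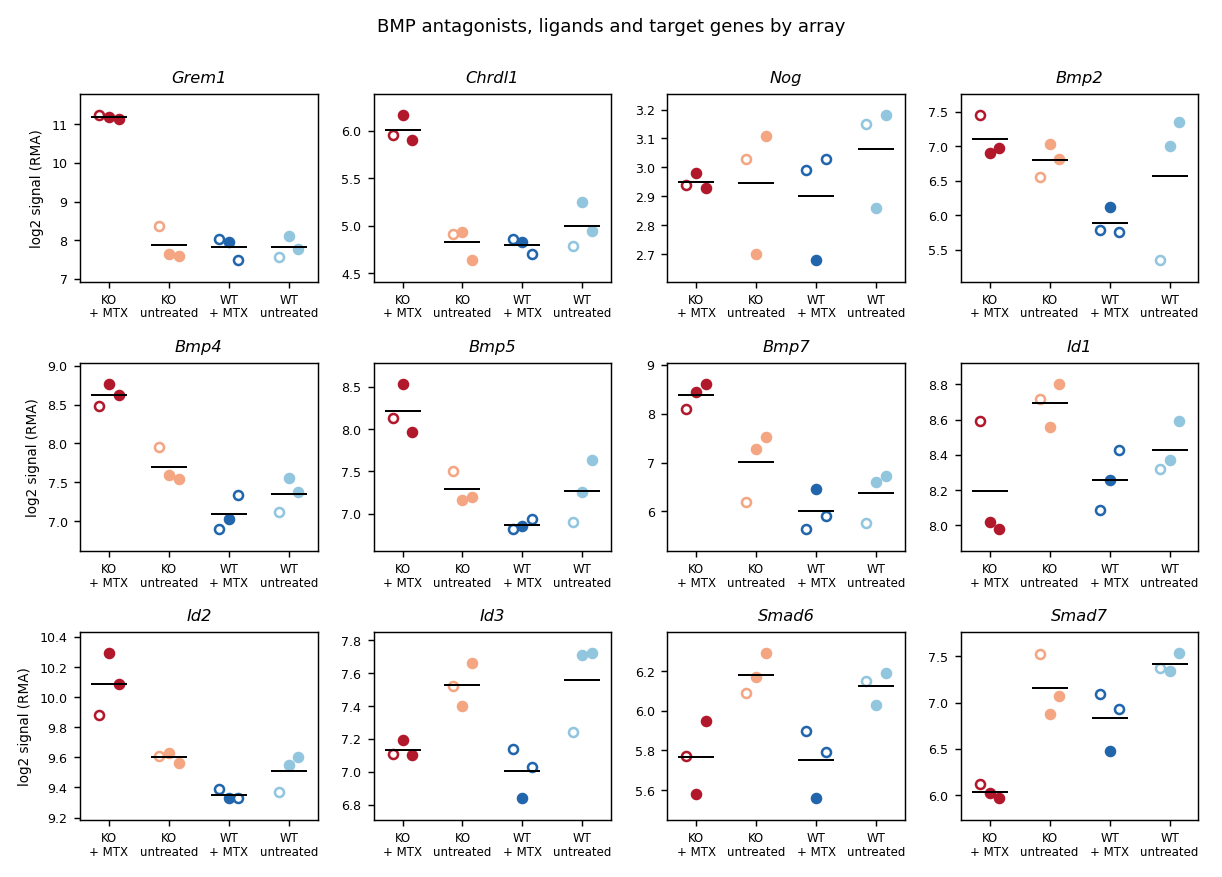
Log2 signal (y axis) of 12 BMP pathway genes in each array, with the groups on the x axis from methotrexate-treated knockouts to untreated wild types, filled points for arrays with high pancreatic acinar signal, open points for low, and a black line at the group mean. Grem1 sits between 11.14 and 11.23 in methotrexate-treated knockouts and at 8.36 or below elsewhere, and Id3, Smad6 and Smad7 are lower in treated than in untreated arrays of both genotypes.

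Separation of the arrays gave a second view of the responses. After methotrexate in knockouts, 19 of the 40 genes lay wholly above the untreated knockouts, where 23% of all genes did, and 4 lay wholly below (Rnf43, Id3, Smad6 and Smad7), where 21.6% of all genes did. In wild types none of the 40 lay wholly above, where 13.5% of all genes did. There 8 lay wholly below (Wnt2, Rspo3, Dkk2, Nkd1, Notum, Id3, Smad6 and Smad7), where 9.18% of all genes did. Against all other 9 arrays, the methotrexate-treated knockouts were highest without overlap for 18 genes, where 17.2% of all genes were, and lowest for Smad7, where 14.7% were.

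Treated knockouts were also set against treated wild types. Of the 40 genes, 19 were higher (47.5%) and 1, Smad7, was lower (2.5%), where 20.2% of all genes were higher and 16.8% lower. The median difference of the 40 genes was 0.47, against 0.00 over all genes. Grem1 was 3.36 ± 0.22 higher (10.3-fold, limma adjusted p = 4.3e-07, n = 3), Sfrp1 2.96 ± 0.21 (adjusted p = 9.42e-07), Rspo3 2.29 ± 0.11 (adjusted p = 4.31e-08), Fzd1 2.27 ± 0.16 (adjusted p = 7.88e-07) and Wnt5a 2.03 ± 0.16 (adjusted p = 1.66e-06). These are the same treated knockout arrays as in the response to methotrexate above. In this comparison 23 of the 40 genes lay wholly above the treated wild types, where 24.2% of all genes did, and 2 (Wnt9b and Smad7) lay wholly below, where 22% did. The count of 1 gene called lower depended on the fit. Lgr4 was called lower too with median centring (-0.69, limma adjusted p = 0.0351) and array weights (-0.74, adjusted p = 0.00225). Without replicate 1 of the methotrexate-treated knockouts it was -0.94 (adjusted p = 0.00186). Axin2 was called lower with array weights and without that array (-0.68 and -0.82, adjusted p = 0.00455 and 0.0116), and Wif1 and Fzd7 higher. Over all genes 4133 and 3405 were lower there.

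The BMP ligands stood further apart in this comparison. Bmp7 was 2.38 ± 0.36 higher (limma adjusted p = 0.000245, n = 3), Bmp4 1.53 ± 0.16 (adjusted p = 1.63e-05), Bmp5 1.34 ± 0.19 (adjusted p = 0.000158) and Bmp2 1.22 ± 0.41 (adjusted p = 0.0348). The Bmp2 call was lost without any 1 of the 6 methotrexate arrays (adjusted p 0.0506 to 0.0983). Dkk2 was higher by 0.96 (adjusted p = 0.00386) and Znrf3 by 0.50 (adjusted p = 0.0101). Smad7 was lower, with a difference of -0.80 ± 0.18 (adjusted p = 0.0042), whereas Id1, Id3 and Smad6 differed by -0.07, 0.13 and 0.02, with adjusted p of 0.816, 0.554 and 0.934. Intervals for these were -0.43 to 0.30 for Id1, -0.18 to 0.44 for Id3 and -0.25 to 0.29 for Smad6.

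Without methotrexate, no gene of the 40 differed between knockouts and wild types under the same test, where 0.0106% of all genes, 2 in number, did. At an unadjusted p under 0.05, Znrf3 alone of the 40 and 1165 of all genes passed. Estimates ran from -0.48 for Wnt4 to 0.64 for Bmp7, and the smallest adjusted p was 0.786. Fzd1 lay wholly above and Wnt6 wholly below the wild types among untreated arrays, where 7.47% and 5.63% of all genes did so. For Grem1 the interval was -0.43 to 0.52, and for Rspo3 it was -0.42 to 0.05.

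Other genes of the pathways, from lists chosen by function and with earlier results of these data known, were read from the same fit. After methotrexate in knockouts 18.8% of all genes rose and 16% fell. The counts of several lists below, such as that of the BMP receptors and SMADs, lay near those shares. Of 10 other Wnt ligands none passed limma's adjusted test after methotrexate in knockouts, and 2 had an unadjusted p under 0.05. Of 13 other secreted Wnt modulators 3 rose and none fell: Frzb, a secreted Frizzled-related decoy, by 3.42 ± 0.16 (limma adjusted p = 6.22e-08, n = 3), Apcdd1, an inhibitor of Wnt and LRP, by 2.15 ± 0.22 (adjusted p = 1.86e-05), and Wls, the carrier that lets cells secrete Wnt proteins, by 0.92 ± 0.14 (adjusted p = 0.000349). Frzb read 7.42, 7.05 and 7.41 in methotrexate-treated knockouts and between 3.75 and 4.32 in the other 9 arrays, so the treated knockouts stood far apart.

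Of 14 other Wnt and R-spondin receptors 5 rose and 2 fell. Ror1 and Ror2, receptors for Wnt5a, rose by 2.40 ± 0.25 (limma adjusted p = 1.65e-05, n = 3) and 1.50 ± 0.14 (adjusted p = 7.05e-06). Fzd5, a Frizzled of the crypt epithelium, fell by 1.75 (SE 0.21, adjusted p = 5.5e-05). Of 16 measured intracellular relay genes 3 rose and 1, the co-repressor Tle4, fell by 0.96 (SE 0.19, adjusted p = 0.00186). Tcf7l1, a TCF factor that mostly represses, rose by 1.03 ± 0.17 (adjusted p = 0.000672).

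Of 9 other measured Wnt targets of the crypt 4 rose and none fell. They were Cd44 by 2.10 ± 0.19 (limma adjusted p = 6.3e-06, n = 3), the cyclin gene Ccnd1 by 1.80 ± 0.17 (adjusted p = 1.02e-05), the sorting receptor gene Ephb3 by 1.30 ± 0.19 (adjusted p = 0.000264) and Myc by 1.11 ± 0.30 (adjusted p = 0.0143). Cd44 and Ccnd1 are also expressed by cells outside the crypt epithelium. Lgr5, the stem cell receptor for R-spondins, fell by 1.0 (SE 0.32, adjusted p = 0.0298), and its values were 6.54, 5.73 and 5.24 in methotrexate-treated and 7.18, 6.73 and 6.59 in untreated knockouts. Replicate 1 of the treated knockouts, the array with the highest Axin2, Id1 and Lgr4 of its group, also had the highest Lgr5, and its proliferation markers (3 of 4 measured) averaged 9.40, against 8.23 and 8.02 in replicates 2 and 3.

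All 5 other BMP antagonists measured, of 9 listed, rose in knockouts. Fstl1, a secreted follistatin-like protein, rose by 2.86 ± 0.14 (limma adjusted p = 5.78e-08, n = 3), Bmper by 3.21 ± 0.18 (adjusted p = 2.02e-07), Chrdl2 by 2.42 ± 0.23 (adjusted p = 1.06e-05) and Nbl1 by 0.93 ± 0.18 (adjusted p = 0.00171). Bmper read 6.29, 6.47 and 7.05 in methotrexate-treated knockouts and between 3.10 and 3.59 in the other 9 arrays, again with a wide gap. Of 8 other BMP ligands 2 rose and 2 fell. Bmp8b and Bmp8a, neighbouring genes of similar sequence whose probe sets may share signal, changed by 1.96 ± 0.30 (adjusted p = 0.000356) and -1.95 ± 0.29 (adjusted p = 0.000263).

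Of 12 BMP receptors and SMADs 2 rose and 2 fell in knockouts. Bmpr2, the type II BMP receptor, rose by 0.63 ± 0.12 (limma adjusted p = 0.0012, n = 3), Smad5, a BMP signal carrier, rose by 0.51 ± 0.12 (adjusted p = 0.00508), and the activin receptor Acvr2a fell by 0.91 (SE 0.13, adjusted p = 0.00025). In wild types and between untreated genotypes none of the 87 genes of these 8 lists passed limma's adjusted test, while 11 in wild types and 10 between untreated genotypes had an unadjusted p under 0.05. Between treated genotypes, where 20.2% of all genes were higher and 16.8% lower, the counts higher and lower were 0 and 0 of 10 for the Wnt ligands, 3 and 0 of 13 for the secreted modulators, 7 and 1 of 14 for the Wnt receptors, and 3 and 3 of 16 for the relay genes. They were 6 and 1 of 9 for the Wnt targets, 2 and 1 of 8 for the BMP ligands, 5 and 0 of 5 for the BMP antagonists, and 5 and 1 of 12 for the BMP receptors and SMADs.

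The cell-type lists place these values beside those of marker genes after methotrexate in knockouts, where 18.8% of all genes rose and 16% fell. The fibroblast markers rose by 0.91 to 2.28, with a median of 1.93 over 8 genes, a range that spans the changes of Wnt2b, Wnt5a, Rspo3, Dkk3, Fzd1, Chrdl1, Bmp4, Bmp5 and Bmp7 and lies below those of Grem1 and Sfrp1. The other 6 genes that rose (Rspo1, Sfrp2, Nkd1, Sfrp4, Wnt5b and Id2) changed by 0.49 to 0.71, less than any fibroblast marker. Pericyte markers averaged 8.28 to 8.34 in methotrexate-treated knockouts and 6.48 to 7.15 in the other 9 arrays, and all 3 rose. Endothelial markers averaged 7.52 to 7.76 and 6.09 to 6.59, and 5 of 6 rose. Of 6 measured markers of the villus and crypt niche stroma only Cd34 and F3 rose, with list means of 6.37 to 6.49 in methotrexate-treated knockouts and 5.53 to 5.91 in the others. Mesothelial markers averaged 5.86 to 6.20 in methotrexate-treated knockouts and 4.08 to 4.65 elsewhere, and 3 of 5 rose. Enteric neuron and glia markers averaged 4.83 to 5.26 in methotrexate-treated knockouts and 4.07 to 4.34 elsewhere, and 5 of 6 rose. Smooth muscle markers averaged 9.76 to 9.84 in methotrexate-treated knockouts and 8.76 to 9.83 elsewhere, and 3 of 7 rose. How far these shifts account for the changes of the Wnt and BMP genes was not tested.

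Epithelial markers moved less than those of the enterocyte. Their list means were 10.21 to 10.31 in methotrexate-treated knockouts and 10.69 to 11.09 in the other 9 arrays. After methotrexate in knockouts 5 of 8 were lower and Krt18 higher, where 16% of all genes fell and 18.8% rose. Stem cell markers averaged 6.65 to 7.83 in methotrexate-treated knockouts and 7.55 to 8.19 elsewhere: Lgr5 and Olfm4 fell and Smoc2, which stroma also expresses, rose. Paneth markers overlapped, at 9.59 to 10.01 in methotrexate-treated knockouts and 7.69 to 10.43 elsewhere, and so did leukocyte markers, at 5.68 to 6.56 and 5.27 to 6.20.

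**Figure D4:**
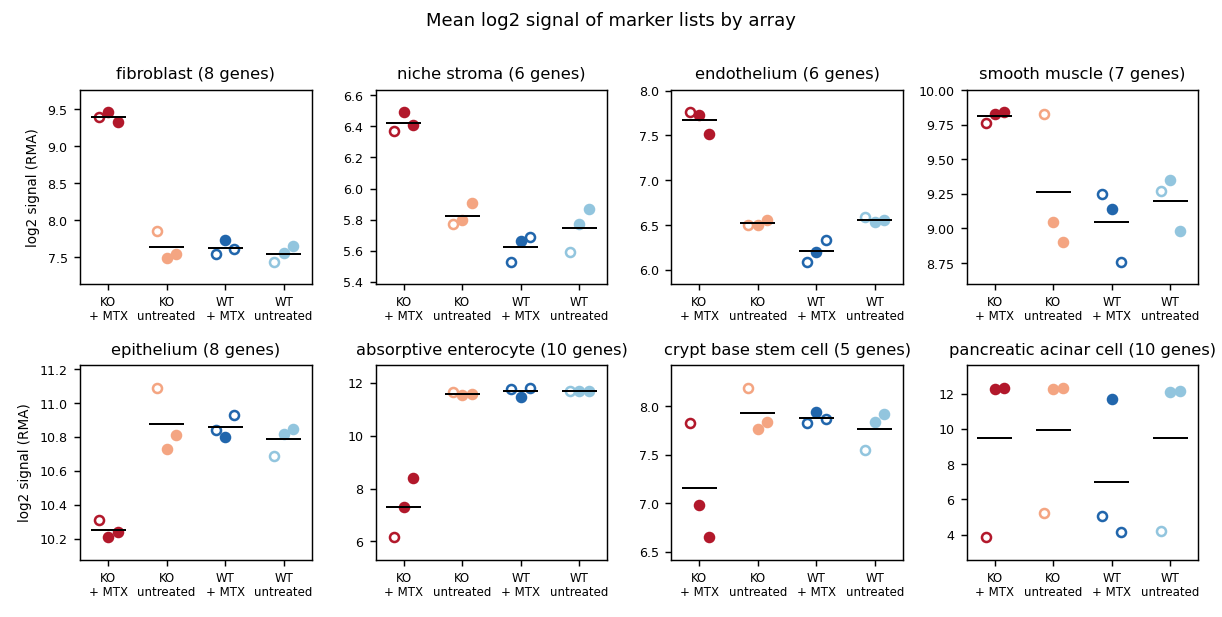
Mean log2 signal (y axis) of 8 cell-type marker lists in each array, with the groups on the x axis from methotrexate-treated knockouts to untreated wild types. Fibroblast markers lie between 9.33 and 9.46 in methotrexate-treated knockouts and at 7.86 or below elsewhere, enterocyte markers at 8.42 or below against 11.46 or above, and pancreatic acinar markers fall into a high and a low set that cut across the groups.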

How the data were processed

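RNA from the proximal jejunum of 12 mice, 1 array each, was analysed. The authors deposited log2 values per probe set made with RMA, per the submitters' processing notes; this method removes background, puts arrays on one scale and combines the probes of a set. Neither its version nor a genome build is given in the sources used here. No further scaling was applied. Of 35556 probe sets, 21218 were paired with 1 gene symbol and 1881 with several, by the platform annotation, and the brightest was used for the 1386 genes that had more than 1 of the former, leaving 18820 genes. There is no read depth to report for arrays, whose number limits precision.

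All 12 arrays entered 1 fit in limma 3.58.1 (R 4.3.3, lmFit and eBayes) with a mean per group and 8 residual degrees of freedom. P-values were adjusted over 18820 genes by the Benjamini-Hochberg method, with 0.05 as threshold and no minimum fold, and intervals are at the 95% level without adjustment. The labels call the arrays of a group biological replicates. The fit was checked on simulated data.

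All of the 40 genes could be named, and of the other pathway lists up to 4 genes each with the smallest p, besides marker genes and Tlr2. The genes and lists were chosen with earlier results of these data known. Promoters came from a RefSeq table of assembly GRCm38.p6.

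The alternatives were averaging the probe sets of a gene, adjustment over all probe sets, quantile normalization, median centring, fits of the compared groups only, replicate number as a block, leaving out dim genes, a log2 change of at least 1, a trended robust variance, array weights, the pancreatic signal as covariate, leaving out each array, and, added after seeing the data, arrays of low or high pancreatic signal alone. The labels name no shared source behind a replicate number. Deviations of same-numbered arrays from their group means correlated at 0.29 to 0.50 between the knockout groups and at 0.50 to 0.67 between the untreated groups, which counts as pairing there by the preset limit of 0.1. The range was -0.49 to 0.53 between the wild-type groups and -0.15 to 0.25 between the treated groups, which does not. In the knockout and the untreated groups, same-numbered arrays were also alike in pancreatic signal, both high or both low. Differently numbered arrays that were both high correlated at 0.27 and 0.40 between the knockout groups and at 0.45 and 0.48 between the untreated groups. A shared number therefore cannot be told apart from a shared level of pancreatic signal there.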

Additional observations from a re-analysis of the deposited data

Results flagged for a closer look

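The response to methotrexate differed between genotypes for 17 of the 40 genes (42.5%) by limma's interaction test (adjusted p under 0.05 over all genes, n = 3 mice per group). Each of the 17 was more positive in knockouts than in wild types, where 11.8% of all genes passed above 0 and 12% below. With array weights Axin2, Id1, Lgr4, Notum and Smad7 were also called, below 0, and Bmp2, Fzd7 and Wif1 above it. The interaction, which is the log2 change in knockouts minus that in wild types, was 3.32 for Grem1, 2.85 for Sfrp1, 2.47 for Rspo3, 2.04 for Wnt5a, 2.03 for Dkk3, 1.98 for Fzd1, 1.74 for Bmp7 and 1.48 for Wnt2b. It was 1.38 for Chrdl1, 1.32 for Bmp5, 1.19 for Bmp4, 1.02 for Rspo1, 0.93 for Dkk2, 0.92 for Nkd1, 0.86 for Sfrp2, 0.85 for Sfrp4 and 0.65 for Id2. Rspo3 had the smallest adjusted p, at 1.18e-06, and Dkk2 the largest, at 0.0438.

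The Dkk2 interaction lost its call without any 1 of 10 arrays (adjusted p 0.0525 to 0.106), the exceptions being replicates 1 and 3 of the methotrexate-treated knockouts. The Bmp7 interaction lost it without replicate 2 or 3 of the methotrexate-treated knockouts, replicate 1 or 3 of the methotrexate-treated wild types, or replicate 2 or 3 of the untreated wild types (adjusted p 0.0563 to 0.0667). Sfrp4 lost it without any 1 of 6 arrays (adjusted p 0.0533 to 0.0597). Averaging its probe sets gave an interaction of 0.81 for Bmp7, and the call was lost (limma adjusted p = 0.106). Several interactions were smaller in the arrays of low pancreatic signal, which hold 1 array per knockout group. They were 0.80 for Wnt2b, 0.66 for Bmp5, 0.54 for Sfrp4, 0.52 for Bmp4, 0.45 for Nkd1 and 0.29 for Id2. That of Sfrp2 was 0.92 there. The interaction of Bmp2 was 0.99 (adjusted p = 0.271) and that of Axin2 was -0.75 (adjusted p = 0.205). Without replicate 1 of the untreated wild types it was 1.60 for Bmp2 (adjusted p = 0.00213), and without replicate 1 of the methotrexate-treated knockouts it was -1.07 for Axin2 (adjusted p = 0.0188).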

How the results depend on the processing

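No gene with a call changed direction under any alternative. Of the 23 genes called after methotrexate in knockouts, 8 were called under every alternative (Wnt5a, Rspo3, Dkk3, Sfrp1, Grem1, Chrdl1, Fzd1 and Smad7), as were 13 of the 20 called between treated genotypes and 8 of the 17 with an interaction. Leaving out 1 array at a time gave 18 to 24 genes in knockouts, 0 to 0 in wild types, 19 to 23 between treated genotypes, 0 to 0 between untreated genotypes and 14 to 21 for the interaction. Over all genes these fits gave 5529 to 6637, 0 to 97, 5852 to 7210, 1 to 6 and 3825 to 5165 in that order. With the replicate block the counts were 23, 0, 21, 0 and 18 in that order, with Id3 lost (adjusted p = 0.0649) and Dkk2 gained (0.0487) in knockouts and no other knockout call changed. Over all genes the block gave 6455, 0, 6977, 2 and 4486. In knockouts the count was 10 with a log2 change of at least 1. The arrays of low pancreatic signal hold 1 array per knockout group. There Bmp4, Bmp5, Id1, Id2, Id3, Nkd1, Notum, Rnf43, Sfrp4, Smad6, Wnt2b and Wnt5b lost their knockout calls, and Bmp2, Dkk2 and Wnt3 gained one. In wild types, array weights gave 9 genes (Bmp2, Bmp4, Chrdl1, Id3, Rnf43, Smad7, Wnt2, Wnt4 and Wnt5a) and the arrays of high pancreatic signal 4 (Bmp2, Id3, Rnf43 and Smad7), all lower after methotrexate; array weights gave 1819 and the high arrays 836 of all genes, against 14, 25 with the pancreatic covariate, 7 with a log2 change of at least 1 or a trended variance, and 0 with median centring, the compared groups only or the block. The high arrays hold only replicate 2 of the methotrexate-treated wild types, so the wild-type calls in them rest on that lone treated array. In the fit with array weights, replicate 2 of the untreated wild types had a weight of 6.69, against 0.39 and 0.94 for replicates 1 and 3. The wild-type calls of that fit therefore lean on 1 untreated array. Over all genes a log2 change of at least 1 left 2792 of 6549 in knockouts, 3284 of 6948 between treated genotypes and 2845 of 4479 interactions, and array weights gave 7474 interactions. Fitting the compared groups only, Id1, Notum, Sfrp4, Smad6 and Wnt5b lost their calls in knockouts (adjusted p 0.0556 to 0.11). The cause of these shifts was not tested.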
